A study of Homo sapiens with 21 samples.

Results

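The genes described here encode the proteins of the mitochondrial ribosome, and they were taken as every annotated symbol made of MRPL or MRPS followed by digits, without pseudogenes. This rule gave 76 of the 19426 gene symbols on the array that had probesets naming 1 gene. Of them 49 encode proteins of the large subunit, which forms the peptide bond, and 26 encode proteins of the small subunit, which reads the messenger RNA. The remaining one, MRPS36, carries the name of the family but is now called KGD4 and encodes a component of the 2-oxoglutarate dehydrogenase complex. MRPS18A and MRPS30, despite their names, are proteins of the large subunit and were counted there. A gene was tested where at least 3 of its probesets passed a filter on dim signal, which left 75 members among 16614 genes tested. MRPS28, a small subunit protein, had 2 probesets of its own and was not tested. Their means were 5.83 and 6.20 at 0 min and 5.62 and 6.41 at 480 min on the log2(intensity + 16) scale.

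The measurements came from MCF10A cells, a non-tumorigenic human mammary epithelial line. Cells were plated for 24 h in medium without EGF, starved for 24 h in medium with 1% horse serum, and then received epidermal growth factor at 20 ng/ml. Total RNA depleted of ribosomal RNA was hybridised to exon arrays at 0, 20, 40, 60, 120, 240 and 480 min, with 3 biological replicates, A, B and C, at each time (21 arrays). The 0 min arrays were from cells without EGF. Only cells with EGF were measured at the later times, so EGF, handling and time in culture cannot be told apart in any comparison with 0 min.

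Mitochondrial ribosomes translate the few messages of the mitochondrial genome, all of them for subunits of the oxidative phosphorylation complexes. Their RNA comes from mitochondrial DNA, whereas all of their proteins are encoded in the nucleus, made in the cytosol and imported. Many of these proteins descend from bacterial ribosomal proteins, and the others were added in mitochondria. MYC, NRF1 and the ETS factor GABP are among the regulators known to act on nuclear genes for mitochondrial proteins.

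The sequence before the transcription start of 4 members is shown because these members passed the F-test described further on and rose at 480 min, while their motif content differs. The sequences are RefSeq promoters of GRCh38.p14, the 250 bases before the start, written 5′ to 3′ on the gene's strand. They lie at chr11:6683341-6683590 on the minus strand for MRPL17, at chr17:57850045-57850294 on the minus strand for MRPS23, at chr7:55951627-55951876 on the plus strand for MRPS17 and at chr14:22829637-22829886 on the plus strand for MRPL52. Capitals mark exact matches on either strand to GCGCATGCG (the NRF1 motif), CCGGAAG (the ETS core bound by GABP), AAGATGGC (YY1), CACGTG (the E-box of MYC and others), TGACGTCA (the CRE of CREB and ATF factors) or TGACTCA (AP-1).
MRPL17: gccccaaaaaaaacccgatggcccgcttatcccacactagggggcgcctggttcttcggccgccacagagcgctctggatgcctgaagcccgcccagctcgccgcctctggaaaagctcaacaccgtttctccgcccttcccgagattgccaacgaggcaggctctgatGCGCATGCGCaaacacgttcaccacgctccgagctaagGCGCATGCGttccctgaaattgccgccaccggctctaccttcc
MRPS23: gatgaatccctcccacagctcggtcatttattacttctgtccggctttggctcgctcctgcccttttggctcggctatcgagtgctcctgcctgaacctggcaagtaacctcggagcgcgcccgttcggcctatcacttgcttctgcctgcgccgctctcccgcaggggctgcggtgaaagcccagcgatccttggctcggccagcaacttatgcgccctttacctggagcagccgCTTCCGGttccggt
MRPS17: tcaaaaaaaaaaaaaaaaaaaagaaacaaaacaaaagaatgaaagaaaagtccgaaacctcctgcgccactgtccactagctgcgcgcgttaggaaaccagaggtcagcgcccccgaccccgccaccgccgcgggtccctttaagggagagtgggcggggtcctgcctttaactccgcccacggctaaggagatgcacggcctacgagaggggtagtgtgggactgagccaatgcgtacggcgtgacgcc
MRPL52: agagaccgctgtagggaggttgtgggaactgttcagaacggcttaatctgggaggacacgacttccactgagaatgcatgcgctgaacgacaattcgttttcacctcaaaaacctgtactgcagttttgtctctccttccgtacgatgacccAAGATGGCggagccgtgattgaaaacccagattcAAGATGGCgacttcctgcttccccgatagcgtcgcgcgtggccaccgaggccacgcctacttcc
MRPL17 held NRF1 matches beginning 81 and 43 bases before the start, the first of them a match on both strands. MRPS23 held an ETS match on the minus strand beginning 14 bases before the start. MRPS17 held none of the 6 motifs in this stretch. MRPL52 held YY1 matches beginning 98 and 64 bases before the start, and an ETS match on the minus strand beginning 5 bases before it, which runs past the end of the stretch shown and is not in capitals.

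The whole promoter window of the table, from 250 bases before to 50 bases after the start, was searched for 68 of the 76 members. MRPL2, MRPL10, MRPL13, MRPL15, MRPL21, MRPL23, MRPL35 and MRPS28 were not matched. The ETS core was found in 28 members (41.2%), against 10.3% of 35116 promoters and 12.8% of the 22199 promoters of protein-coding genes. The YY1 motif was found in 20 members (29.4%), against 2.89% of all promoters and 3.53% of those of protein-coding genes. In 15 of these 20 members its only matches lay at or after the start. An ETS core, a YY1 motif or both stood in 40 members (58.8%), against 15.6% of protein-coding genes. The E-box was found in 7 members (10.3%), against 7.26% of all promoters and 8.34% of those of protein-coding genes. The NRF1 motif was found in 3 (4.41%), against 1.92% and 2.36%. No member had the CRE, found in 1.85% of all promoters, or the AP-1 motif, found in 4.95%. Median GC content was 60.2% in the members' promoters, 58.7% in all and 62.3% in those of protein-coding genes. Among the 20 searched members that were higher at 480 min, 9 had the ETS core and 8 the YY1 motif. Among the other 48, the ETS core stood in 19 and the YY1 motif in 12. A match says only that the letters are present, and no binding was measured.

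All values are on the scale log2(intensity + 16), taking for each gene the median over its probesets, so that a difference of 1 is a doubling except at low signal, where it understates the change. Correlation between arrays of the same time ran from 0.944 to 0.988 over all genes. The basal keratins KRT5 and KRT14 averaged 12.48 and 11.37 at 0 min, while the 8 immune and endothelial markers averaged between 5.52 and 6.62, against a filter at 5.18. Signals of different genes on an array are not on one scale, so these levels only describe the line. Among 7 basal markers S100A2 was higher at 480 min, by 1.81, and none was lower. Among 7 luminal markers KRT18 and FOXA1 were higher, by 0.75 and 0.43, and GATA3 fell by 1.02. Among 7 fibroblast markers COL1A1 fell by 0.75. Their part in the results below was not tested. In RNA from whole cultures, fewer cells of a type and less RNA per cell cannot be told apart.

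A minority of the members rose, and the calls came at 60 min and later. No member was called at 20 or 40 min, 3 were higher at 60 min, 13 at 120 min, 19 at 240 min and 21 at 480 min. Only 2 were lower at 120 min, none at 240 min and 2 at 480 min. A call means an adjusted p under 0.05 in limma, with Benjamini-Hochberg adjustment over all genes tested, against the 0 min arrays. The median change of the 75 members was 0.096 at 20 min, 0.122 at 40 min, 0.159 at 60 min, 0.170 at 120 min, 0.216 at 240 min and 0.210 at 480 min, while over all genes it was between 0.017 and 0.054. At 480 min 59 of the 75 lay above 0, and at 20 min 53. Of all 16614 genes 9670 and 8894 lay above 0 at these times. At an unadjusted p under 0.05 in limma, 24 members differed from 0 min at 20 min, 9 at 40 min and 18 at 60 min. These were 32%, 12% and 24% of the list, against 20%, 11.8% and 20.4% of all genes. At 120, 240 and 480 min 27, 28 and 29 did so. These were 36%, 37.3% and 38.7%, against 27%, 31.1% and 33.1% of all genes, so the background rose as well. The lack of calls at 20 min thus depends on the adjusted threshold. No member was called at 40 min either, and the unadjusted share was lower there than at 20 min, among members and among all genes.

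**Figure D1:**
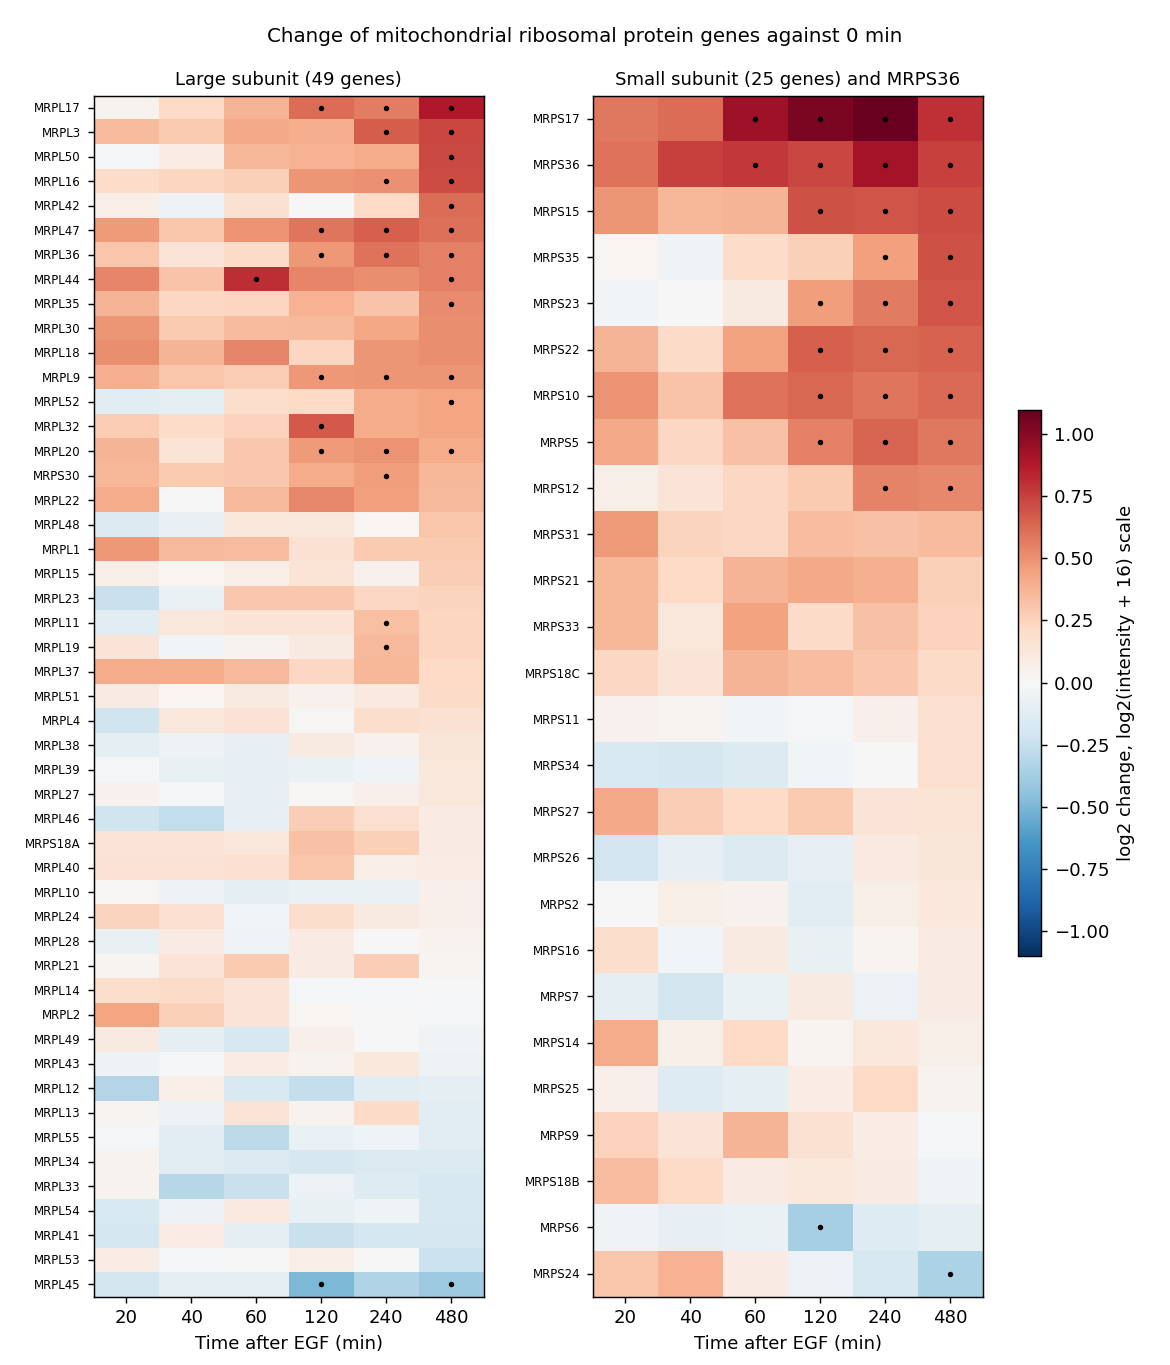
Each cell gives the log2 change of a member (rows) at a time after EGF in min (columns) against 0 min, on the log2(intensity + 16) scale, and a black dot marks an adjusted p under 0.05 in limma. Dots lie at 60 min and later, 3 of them at 60 min and 23 at 480 min, and rows are ordered by the change at 480 min within each panel.

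The members' counts were read against all genes at the same time. At 20 min none of the 75 was called, where 0.897% of all genes were higher and 0.0843% lower, and 24 members (32%) had an unadjusted p under 0.05 in limma, against 20% of all genes. At 40 min again none was called, where 1.82% of all genes were higher and 0.415% lower, and 9 members (12%) had an unadjusted p under 0.05 in limma, against 11.8% of all genes. At 60 min the 3 higher members made up 4% of the list, near the background of 4.82% higher (0.975% of all genes were lower). These 3 were MRPS17, MRPL44 and MRPS36. Without replicate A of 0 min, A of 60 min or C of 60 min, 1 member was higher at 60 min (1.33%, against 3.1%, 3.18% and 2.43% of all genes).

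At 120 min the 13 higher members were 17.3% of the list, against 11.2% of all genes, and the 2 lower members, MRPL45 and MRPS6, stood against 3.21%. The count at 120 min moved with single arrays. It was 5 without replicate A of 0 min (6.67%, below the 8.34% of all genes in that fit) and 5 without replicate C of 120 min (6.67%, as for all genes). It was 8 without replicate B of 120 min (10.7%, against 8.12%) and 23 without replicate A of 120 min (30.7%, against 15.3%). The excess over all genes at 120 min was thus lost without either of 2 single arrays. At 240 min the 19 higher members were 25.3% of the list, against 13.5% of all genes, and none was lower, against 6.21%. That count was 11 without replicate A of 0 min (14.7%, against 10.3% of all genes) and 9 without replicate C of 240 min (12%, against 8.9%), much nearer to the background. At 480 min the 21 higher members were 28% of the list, against 15.5% of all genes, and the 2 lower members, MRPS24 and MRPL45, stood against 7.11%. Without replicate A of 0 min 13 were higher at 480 min (17.3%, against 13% of all genes), without replicate A of 480 min 13 (17.3%, against 11.3%), and without C of 480 min 10 (13.3%, against 10.6%). Most of the excess at 480 min was lost without replicate A of 0 min or replicate C of 480 min. The members called in every fit that left out 1 of the 6 arrays compared were 4 of 15 at 120 min, 8 of 19 at 240 min and 10 of 23 at 480 min.

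Quantile normalisation between arrays changed the balance of directions. Under it 1881 genes were higher and 1919 lower at 480 min, in place of 2573 and 1182. The members then gave 15 higher and 4 lower at 480 min, 13 higher and 3 lower at 240 min and 8 higher and 2 lower at 120 min. Of all genes 11.3% were then higher and 11.6% lower at 480 min, 10.6% and 10.2% at 240 min and 8.19% and 7.12% at 120 min. The 8 higher members at 120 min (10.7%) were near that background. The median change of the members at 480 min fell to 0.045.

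**Figure D2:**
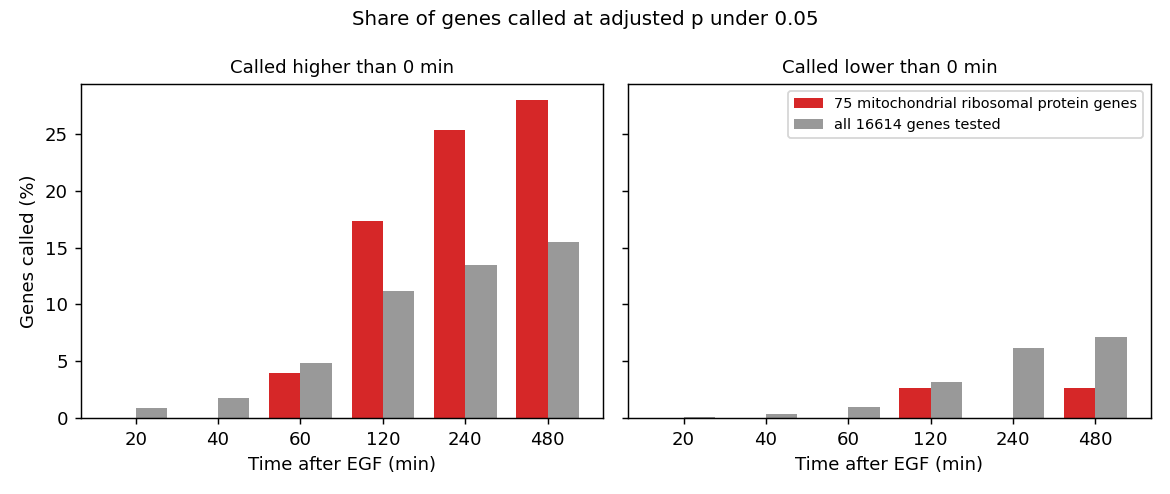
Bars give the percentage of genes called higher (left) or lower (right) than 0 min, by time after EGF in min, for the 75 tested members and for all 16614 genes. The members' bar for higher genes stands at 4% at 60 min and 28% at 480 min, beside 4.82% and 15.5% for all genes.

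A second test asked whether a member differed between any of the 7 times. In limma's F-test 15 of the 75 members (20%) passed, against a background of 27.5% of all genes, so that the share was below that of the array as a whole. Of the 15 members, 14 had a rise as their largest change and MRPL45 a fall. In order of their p-values they were MRPL17, MRPS35, MRPS23, MRPS24, MRPS17, MRPL36, MRPS5, MRPL3, MRPS15, MRPS12, MRPL46, MRPL52, MRPL45, MRPL16 and MRPL42. The largest change came at 480 min in 8 of them, at 240 min in 4, at 120 min in 2 and at 40 min in MRPS24. Without replicate A of 120 min 23 members passed. The share of all genes passing in that fit was not computed, so this count has no background.

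No interval between neighbouring times held a called member. Between 20 and 40 min 0.572% of all genes were called in either direction, between 40 and 60 min 0.229%, between 60 and 120 min 3.49%, between 120 and 240 min 1.54% and between 240 and 480 min 1.47%. The members with an unadjusted p under 0.05 in limma were 5, 2, 5, 1 and 3 in these intervals. These were 6.67%, 2.67%, 6.67%, 1.33% and 4% of the list, below the 12.2%, 7.83%, 13.9%, 9.15% and 10.8% of all genes.

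In the large subunit 12 of 49 members (24.5%) were higher at 480 min and 1 (2.04%) was lower, against 15.5% and 7.11% of all genes. The median change was 0.214. MRPL17, a protein with a bacterial relative that lies near the exit of the nascent chain, had the smallest p of all members. Its signal at 0 min was 6.87, 6.71 and 6.76 in replicates A, B and C. It was 6.53, 7.08 and 6.84 at 20 min, 7.08, 6.99 and 6.92 at 40 min and 7.08, 7.21 and 7.18 at 60 min. It then reached 7.24, 7.26 and 7.67 at 120 min, 7.16, 7.38 and 7.49 at 240 min and 7.54, 7.60 and 7.86 at 480 min. From 40 min on every array lay above all 3 arrays of 0 min. MRPL17 rose by 0.88 ± 0.14 (SE) at 480 min, 1.84-fold in intensity + 16 (adjusted p = 6.83e-05, limma). It rose by 0.61 at 120 min and by 0.57 at 240 min. Of its 10 probesets 9 were higher at 480 min, and its call at 120, 240 and 480 min held in every fit that left out an array.

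MRPL3 is one of the core proteins around the peptidyl transferase centre. It gave 8.89, 9.18 and 9.08 at 0 min, 9.58, 9.76 and 9.81 at 240 min and 9.89, 9.55 and 9.91 at 480 min. The late arrays did not overlap with those of 0 min. MRPL3 rose by 0.73 ± 0.15 (SE) at 480 min (adjusted p = 0.00077, limma), and 23 of its 24 probesets were higher there. MRPL16, another core protein with a bacterial relative, gave 6.90, 7.23 and 7.13 at 0 min and 7.84, 7.63 and 7.95 at 480 min, a rise of 0.72 ± 0.18 (SE, adjusted p = 0.00485, limma). MRPL36, a small zinc-binding protein, rose by 0.47 at 120 min, 0.59 at 240 min and 0.56 at 480 min. MRPL50, found only in mitochondria, gave 7.64, 7.23 and 7.33 at 0 min and 8.24, 7.72 and 8.41 at 480 min. Its arrays did not overlap at 480 min, the time of its only call, and all 5 of its probesets were higher then. It rose there by 0.72, but with 1 array left out it was called in 2 of 6 fits.

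MRPL47, a relative of a bacterial protein at the exit site, rose by 0.59 at 120 min, 0.66 at 240 min and 0.61 at 480 min. It was called in 2, 4 and 3 of the 6 fits that left out an array, and with the array index described further on as a covariate its calls at 120 and 480 min were lost (adjusted p = 0.317 and 0.0912, limma). MRPL44, which has a fold like that of ribonuclease III, was called at 60 and 480 min but not between them. It gave 6.81, 7.71 and 7.51 at 0 min and 8.26, 7.91 and 8.30 at 60 min, and its lowest 0 min value was replicate A. The change was 0.81 at 60 min and 0.55 at 480 min (adjusted p = 0.0499, limma), with calls in 3 and 1 of the 6 fits that left out an array. Both calls were lost with the index as a covariate (adjusted p = 0.055 and 0.189, limma). MRPL42 and MRPL52, both without a bacterial relative, rose at 480 min alone, by 0.61 and 0.44. Each was called in 3 of 6 fits that left out an array, and MRPL52 lost its call with the index as a covariate (adjusted p = 0.0969, limma). By origin, 8 of 30 large subunit members with a bacterial relative (26.7%) were higher and none was lower at 480 min. Among the 18 found only in mitochondria 4 (22.2%) were higher and 1 (5.56%) was lower. Of all genes 15.5% were higher and 7.11% lower. The difference between these classes was not tested.

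The other calls in the large subunit were smaller or came at fewer times. MRPL9, with a bacterial relative, rose by 0.47 at 120 min, 0.49 at 240 min and 0.49 at 480 min, and MRPL20, needed in bacteria for early assembly of the large subunit, by 0.47, 0.50 and 0.41. MRPL32, another protein with a bacterial relative, rose at 120 min alone, by 0.67, and MRPL35 at 480 min alone, by 0.52. MRPL11, MRPL19 and MRPS30 rose at 240 min alone, by 0.33, 0.36 and 0.46. With 1 array left out, MRPL9 was called at 480 min in 4 of 6 fits, MRPL20 and MRPL35 in 2 each. MRPL32 at 120 min and MRPL11, MRPL19 and MRPS30 at 240 min were also called in 2 of 6 each. With the index as a covariate these 4 lost their calls (adjusted p = 0.135, 0.0616, 0.0535 and 0.0898, limma), as did MRPL20 and MRPL35 at 480 min (adjusted p = 0.158 and 0.172, limma). MRPL9 and MRPL20 also lost their calls at 120 min (adjusted p = 0.124 and 0.228, limma).

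MRPL45, a mitochondria-specific protein that helps to hold the ribosome at the inner membrane, was the exception in direction. It gave 8.77, 8.82 and 8.53 at 0 min, 8.23, 8.21 and 8.18 at 120 min, 8.39, 8.36 and 8.37 at 240 min and 8.20, 8.45 and 8.25 at 480 min. Every array from 120 min on lay below those of 0 min. MRPL45 fell by 0.50 at 120 min (adjusted p = 0.0103, limma) and by 0.40 ± 0.13 (SE) at 480 min (adjusted p = 0.0261, limma). With 1 array left out, the fall was called in 5 of 6 fits at 120 min and in 2 of 6 at 480 min. With the index as a covariate it was called at neither time (adjusted p = 0.0651 and 0.0817, limma). Of its 11 probesets 4 were higher at 480 min, and with the mean over probesets in place of the median the change was -0.04 (adjusted p = 0.828, limma). MRPL46 passed the F-test with no call at any time, its mean changing by -0.27 at 40 min and 0.27 at 120 min.

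In the small subunit 8 of 25 tested members (32%) were higher at 480 min and 1 (4%) was lower, against 15.5% and 7.11% of all genes. The median change at 480 min was 0.177. That median was 0.253 at 20 min, 0.140 at 40 min, 0.216 at 60 min, 0.212 at 120 min and 0.217 at 240 min, so it was not larger at 480 min than at 20 min. At an unadjusted p under 0.05 in limma, 11 of the 25 members differed at 20 min and 10 at 480 min. These were 44% and 40%, against 20% and 33.1% of all genes. MRPS17, a core protein with a bacterial relative, had the largest rise of any member at 60, 120 and 240 min. It gave 6.14, 6.80 and 6.81 at 0 min, 7.71, 7.17 and 7.66 at 60 min, 7.55, 7.74 and 7.55 at 120 min, 7.56, 7.62 and 7.81 at 240 min and 7.45, 7.10 and 7.62 at 480 min. All of these late arrays lay above the 3 arrays of 0 min, of which replicate A was the lowest. MRPS17 rose by 0.93 at 60 min (adjusted p = 0.00267, limma) and by 0.81 ± 0.18 (SE) at 480 min. At 240 min it rose by 1.08, 2.12-fold in intensity + 16 (adjusted p = 0.000176, limma). All 4 of its probesets were higher at 240 min, and all its calls held in every fit that left out an array.

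MRPS35 and MRPS23, both found only in mitochondria, rose later and more regularly. MRPS35 gave 7.52, 7.64 and 7.71 at 0 min, 7.72, 7.86 and 8.07 at 120 min, 7.93, 8.03 and 8.27 at 240 min and 8.33, 8.16 and 8.48 at 480 min. It was 0.70 ± 0.12 (SE) higher at 480 min (adjusted p = 0.000155, limma), and all 10 probesets were higher. MRPS23 gave 5.90, 5.72 and 5.77 at 0 min, 6.07, 6.18 and 6.53 at 120 min, 6.18, 6.42 and 6.52 at 240 min and 6.51, 6.41 and 6.56 at 480 min. The arrays from 120 min on lay above all those of 0 min for both genes. MRPS23 rose by 0.69 ± 0.14 (SE) at 480 min (adjusted p = 0.000682, limma), in 7 of 7 probesets. With probesets kept only at or above the 75th percentile of signal, its change at 480 min was 0.32 and no longer called.

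MRPS15, MRPS5, MRPS10 and MRPS12 have bacterial relatives, and MRPS12 lies at the decoding centre. MRPS15 gave 7.69, 8.06 and 7.93 at 0 min and 8.69, 8.41 and 8.74 at 480 min. It rose by 0.70 at 120 min, 0.69 at 240 min and 0.72 at 480 min. MRPS5 rose by 0.55, 0.64 and 0.58 at these times, and MRPS12 by 0.54 at 240 min and 0.53 at 480 min. MRPS10 and the mitochondria-specific MRPS22 rose at the same 3 times as MRPS15, by 0.59 to 0.63 and by 0.63 to 0.66. The calls of MRPS15 and MRPS5 held without any 1 of the arrays, while MRPS10 was called at 480 min in 3 and MRPS22 in 4 of 6 such fits. With the index as a covariate MRPS10 was not called at 120, 240 or 480 min (adjusted p = 0.156, 0.0727 and 0.0656, limma). MRPS22 lost its call at 120 min in that fit (adjusted p = 0.155, limma). By origin, 5 of 15 small subunit members with a bacterial relative (33.3%) were higher at 480 min and 1 (6.67%) was lower. Of 9 found only in mitochondria 3 (33.3%) were higher and none was lower. The shares of all genes were 15.5% higher and 7.11% lower.

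MRPS24, a core protein of the small subunit near the entry of the messenger RNA, had a course of its own. It gave 7.55, 7.95 and 7.80 at 0 min, 8.15, 8.24 and 8.05 at 40 min and 7.45, 7.30 and 7.52 at 480 min. The arrays of 40 min lay above those of 0 min and the arrays of 480 min below them. The change at 40 min, 0.38, was not called (adjusted p = 0.0963, limma), and at 480 min MRPS24 fell by 0.34 ± 0.11 (SE, adjusted p = 0.0308, limma). Of its 7 probesets 1 was higher at 480 min, and the fall was called in 2 of 6 fits that left out an array. MRPS6, which has a bacterial relative, fell by 0.37 at 120 min (adjusted p = 0.0419, limma) and was not called later. That fall was called in 2 of 6 fits that left out an array.

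**Figure D3:**
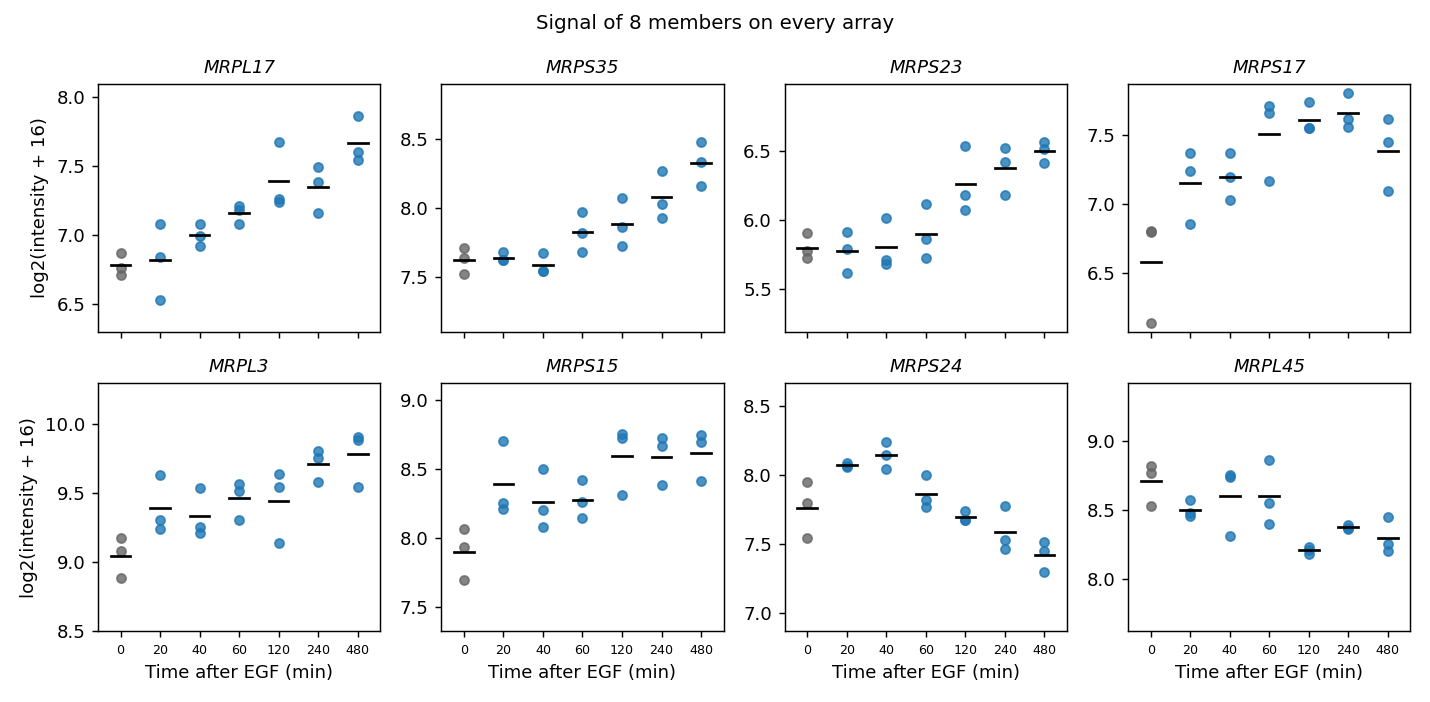
Points give the log2(intensity + 16) signal of 8 members on each of the 3 arrays at each time after EGF in min (0 min in grey), and bars give the mean of the 3. Every panel spans the same height, and the arrays of 480 min lie above those of 0 min in 6 members and below them in MRPS24 and MRPL45.

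The genes with the largest F-test p-values show members without a detected change. MRPL10, a protein of the stalk that binds translation factors, gave 7.50, 7.29 and 7.02 at 0 min and 7.32, 7.25 and 7.41 at 480 min, a difference of 0.06 ± 0.12 (SE). MRPL28 differed by 0.04 and MRPL13 by -0.12 at 480 min, with ranges that overlapped those of 0 min. MRPL27, whose bacterial relative reaches the peptidyl transferase centre, differed by 0.12, though 2 of its 9 probesets were higher there. A p above the threshold does not show that these genes stayed at one level. Of the 3 relatives of bacterial S18, which occupy different places in the ribosome, MRPS18A changed by 0.09, MRPS18B by -0.05 and MRPS18C by 0.21 at 480 min, and none was called at any time. MRPS36, the member outside the ribosome, was higher by 0.92 at 240 min (adjusted p = 0.00613, limma) and 0.75 at 480 min, on 3 probesets of which 2 were higher. At 480 min it was called in 2 of 6 fits that left out an array. Without the filter on dim probesets its change at 480 min was -0.07.

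The members' signal moved with a property of the arrays. An index was taken for each array, the median log2 signal of probesets naming 1 gene minus that of probesets without a gene name. Its mean was 1.24 ± 0.02 (SD, n = 3) without EGF, and the means of the 6 later times ran from 1.27 to 1.32. Replicate A of 120 min had an index of 1.224 and a members' median of 7.242, whereas replicate C of 120 min had 1.416 and 7.516. Across the 21 arrays, the deviations of the members' median and of the index from their means at each time had a correlation of 0.799. Both values come from the same arrays and share probesets, so it is given as a description. With the index as a covariate in limma, 1 member was higher at 60 min (1.33%, against 3.43% of all genes) and 4 at 120 min (5.33%, against 8.46%). Both shares were below those of all genes. At 240 min 14 were higher (18.7%, against 12.7%) and at 480 min 14 (18.7%, against 15.3%). Most of the excess at 480 min was thus lost in that fit. At 480 min 15 of the 23 called members were called in both fits. MRPL17 rose by 0.74 in that fit (adjusted p = 0.000123, limma) and MRPS35 by 0.57 (adjusted p = 0.000278, limma).

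**Figure D4:**
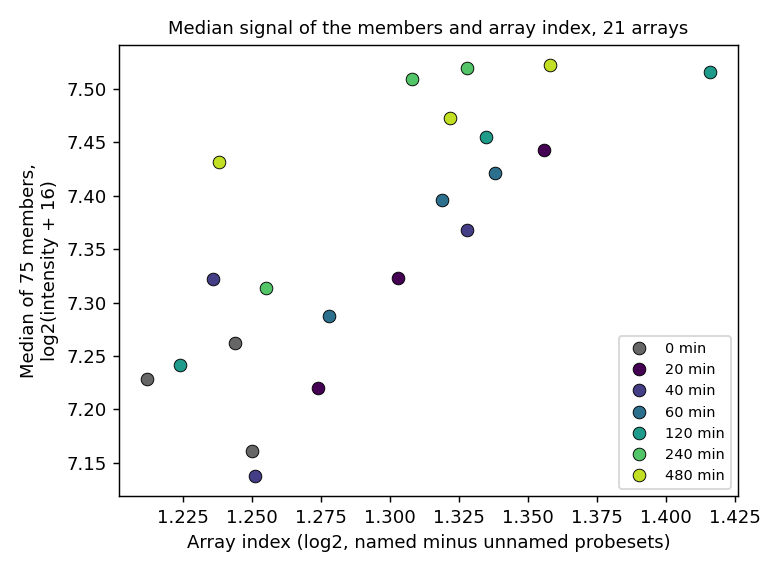
Each point is an array, coloured by time, with the index (log2 signal of named minus unnamed probesets) on the horizontal axis and the median log2(intensity + 16) of the 75 members on the vertical axis. Replicate C of 120 min, with the index of 1.416, lies at the far right, and the 3 arrays of 0 min lie at 1.212 to 1.250.

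Probesets without a gene name gave a readout apart from the named probesets. Those whose identifiers lay between 2 probesets of a member were summarised per gene as bracketed probesets. Identifier order follows the chromosomes only in part, since 86.8% of successive genes were on the same chromosome, so where these probesets lie is not given here and they cannot be called intronic. Bracketed values were obtained for 35 members of 10822 genes. In limma's F-test 6 of the 35 passed, against 18.5% of those genes. They were MRPS25, MRPS26, MRPL16, MRPL1, MRPS31 and MRPL13. Without the least correlated array of each time 10 passed, and the share of all genes in that fit was not computed.

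At 40 min 5 of the 35 were lower, against 4.10% of the 10822 genes. These were MRPS26, MRPL1, MRPS31, MRPL13 and MRPL22, with changes between -0.435 and -0.583. MRPS31, a mitochondria-specific protein of the small subunit, gave 5.64, 5.61 and 5.97 at 0 min and 5.32, 5.20 and 5.11 at 40 min in its bracketed probesets. The arrays of 40 min lay below all those of 0 min. Its bracketed signal fell by 0.53 at 40 min (adjusted p = 0.00678, limma). The annotated probesets of these 5 genes had no call at 40 min. At 60 min 2 were lower, MRPS31 and MRPL13, against 4.68%.

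Higher bracketed signal was seen at 120 min in MRPS25 and MRPL3, 2 of 35 against 4.36%, and at 240 min in MRPS25 alone, against 2.46%. MRPS25, another mitochondria-specific protein of the small subunit, gave 5.83, 6.18 and 6.18 at 0 min and 6.60, 6.72 and 6.91 at 120 min there. No array of 120 min overlapped with those of 0 min. The rise was 0.68 ± 0.13 (SE, adjusted p = 0.00195, limma). Its annotated probesets were not called at any time. MRPL3 was higher by 0.61 at 120 min in its bracketed probesets, where its annotated probesets changed by 0.40 without a call. Its bracketed mean at 0 min was 5.34, near the filter, and it did not pass the bracketed F-test (adjusted p = 0.0683, limma).

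Genes that work with the mitochondrial ribosome were compared at 480 min, each list by its counts and median. Of 6 tested proteins of the mitochondrial ribosome with other annotated names, 2 were higher, MRPL58, a peptidyl-tRNA hydrolase built into the large subunit, by 0.70 and PTCD3, a small subunit protein, by 0.65. Of 26 genes for assembly and rRNA modification 4 were higher at 480 min and 7 at 240 min, with none lower at either time. These are 15.4% and 26.9% of the list, against 15.5% and 13.5% of all genes, so the share at 480 min was that of the background. They included TFB1M, the dimethyltransferase of the small subunit rRNA, at 0.83 and MTERF3, a factor of ribosome assembly, at 0.56. Of 16 translation factors 3 were higher, among them the elongation factor GFM1 at 0.66. Of 19 mitochondrial aminoacyl-tRNA synthetases 1 was higher, MARS2 at 1.08.

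The list of mitochondrial DNA upkeep, transcription and RNA processing and that of import and chaperones had larger shares called higher. These were 44.4% and 40%, against 15.5% of all genes. Of 18 genes of mitochondrial DNA upkeep, transcription and RNA processing 8 were higher and none was lower at 480 min, with a median change of 0.318. TFB2M, which opens the promoters of mitochondrial DNA, was higher by 1.28, the exoribonuclease PNPT1 by 1.15 and the poly(A) polymerase MTPAP by 0.66. Of 25 genes of import and chaperones 10 were higher and none was lower, with a median of 0.301. GRPEL1, a nucleotide exchange factor of the mitochondrial HSP70, was higher by 0.85 and TIMM23, the channel of the inner membrane translocase, by 0.68. Of 11 regulators of mitochondrial biogenesis 4 were higher and 1 was lower. GABPB1, the partner subunit of GABP, was higher by 0.88 and the coactivator PPRC1 by 0.77, while the coactivator PPARGC1A fell by 1.17.

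Further lists showed lower shares than the members. Of 76 cytosolic ribosomal proteins 6 were higher and 3 lower at 480 min, with a median change of 0.049. Of 36 complex I subunits, which include partners of proteins made by the mitochondrial ribosome, 2 were higher and 1 was lower, with a median of -0.033. The background for these counts at 480 min is again 15.5% higher and 7.11% lower. The lists were compared by description, and no test of the difference between them was made.

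**Figure D5:**
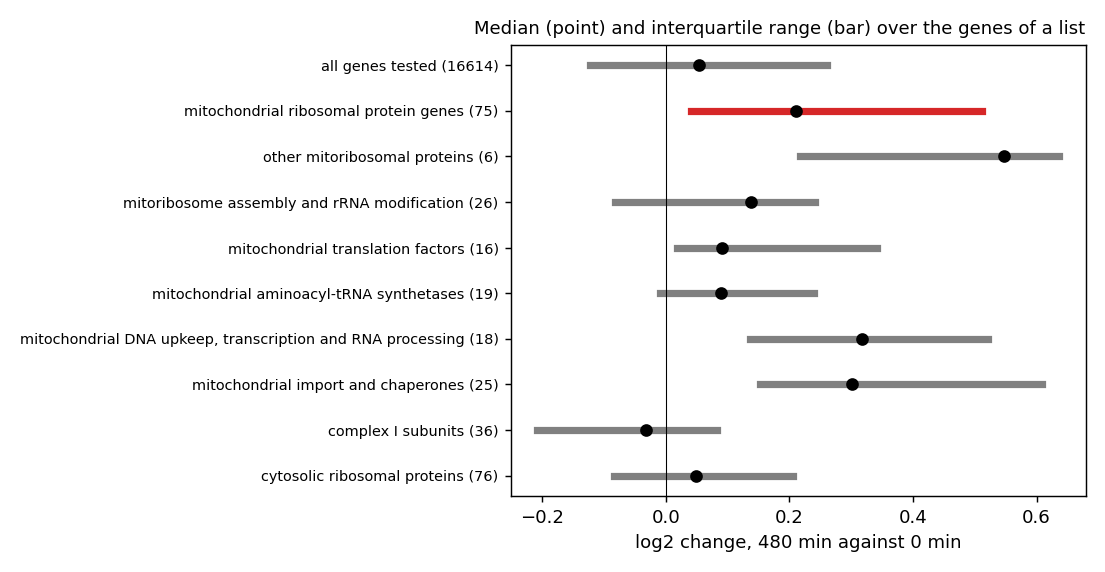
Points give the median log2 change at 480 min against 0 min over the tested genes of each list, and bars the interquartile range over genes, with the number of genes in brackets. The median of the 75 members is 0.210, beside 0.049 for the cytosolic ribosomal proteins and 0.318 for the genes of mitochondrial DNA upkeep, transcription and RNA processing.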

How the data were processed

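The authors deposited 21 exon arrays as linear probeset intensity values, made with PLIER in Affymetrix Expression Console 1.1 per the submitters' processing notes. No source used here names the build of the array annotation. The 354600 probesets naming 1 gene were used, those naming several genes were left out, and old symbols were updated through RefSeq. Probesets with a mean of at least 5.18 in log2(intensity + 16) were kept, the median over a gene's kept probesets was taken, and genes with at least 3 were tested. limma 3.58.1 in R 4.3.3 fitted 1 mean per time to all 21 arrays (residual df 14, prior df 7.08), with Benjamini-Hochberg adjustment over 16614 genes and a threshold of 0.05. The median SD was 0.169, and 3 arrays a time limit the precision. The fit was tested on simulated data.

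The members and lists were chosen with earlier results of these data known. Members are named by fixed rules: the 6 largest rises and falls at each time among called members whose arrays did not overlap, the 12 smallest and 4 largest F-test p-values, the S18 relatives, the untested member, up to 3 genes of each other list by adjusted p at 480 min, and genes behind counts of 5 or fewer. Others were chosen after their values were seen. Alternatives changed normalisation, centring, pseudocount, filter, gene summary, block, index covariate and arrays. Same-lettered arrays were not treated as pairs. Deviations at later times correlated with those of the same-lettered 0 min array from -0.416 to 0.343, over 0.1 in 5 of 18 comparisons. Arrays of different letters were not compared, so this does not settle whether the letters pair the arrays. Figures were drawn with matplotlib 3.10.9.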

Additional observations from a re-analysis of the deposited data

How the results depend on the processing

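Counts depended on the setting more than directions did. Across all alternatives the median change of the members stayed above 0, between 0.011 and 0.183 at 20 min, 0.016 and 0.145 at 40 min, 0.044 and 0.214 at 60 min, 0.030 and 0.257 at 120 min, 0.096 and 0.266 at 240 min and 0.045 and 0.225 at 480 min. MRPS36 alone reversed among the named members, to -0.094 at 120 min and -0.07 at 480 min without the filter, which brings in its dim probesets. The cause of the other shifts was not tested.

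Under quantile normalisation 2 members were higher at 40 min (2.67%, against 1.9% of all genes) and 8 at 120 min (10.7%, against 8.19%). Under it 3 were lower at 240 min (4%, against 10.2%) and 4 at 480 min (5.33%, against 11.6%). With a pseudocount of 1, 1 member was lower at 120 min (1.33%, against 3.17%). Without the filter 1 was lower at each of 40, 60 and 120 min (1.33%, against 0.296%, 0.845% and 2.44%). At 60 min 1 was higher (1.33%, against 3.99%). With the 75th percentile as the filter 24 of 70 members passed the F-test, and 2 in bracketed probesets. With the mean over probesets 1 was higher at 20 min (1.33%, against 1.22%) and 1 at 40 min (1.33%, against 2.47%). In that fit 1 was lower at 40 min (1.33%, against 0.62%) and 1 at 480 min (1.33%, against 9.5%). The F-test was passed by 23, with 12 in bracketed probesets. With the index as a covariate 1 was higher at 40 min (1.33%, against 2.65%) and 1 at 60 min (1.33%, against 3.43%). At 120 min 4 were then higher (5.33%, against 8.46%). The same fit left 1 lower at 120 min (1.33%, against 5.81%) and 1 at 480 min (1.33%, against 11.5%). With only the arrays of the 2 times compared 1 was higher at 40 min and 5 at 120 min. In these fits 1 was lower at 120 min and 0 at 480 min, and the shares of all genes were not computed. Without the least correlated array of each time 2 were higher at 20 min (2.67%, against 3.68%) and 1 at 60 min (1.33%, against 3.35%). Then 20 were higher at 120 min (26.7%, against 15.5%) and 10 at 240 min (13.3%, against 10.6%). In that fit 1 was lower at 120 min (1.33%, against 3.92%) and 1 at 240 min (1.33%, against 5.66%). The F-test was then passed by 28, with 10 in bracketed probesets. The share of all genes passing the F-test was not computed in any alternative fit, so these F-test counts have no background.

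With the replicate letters as a block, 19 members were higher at 480 min (25.3%, against 15.2% of all genes). In that fit 17 were higher at 240 min (22.7%, against 13%) and 13 at 120 min (17.3%, against 10.8%). The F-test was passed by 15, and 1 was lower at 120 min (1.33%, against 3%). Leaving out 1 array at a time, the higher members ranged from 0 to 4 at 20 min, 0 to 1 at 40 min and 1 to 4 at 60 min. They ranged from 5 to 23 at 120 min, 9 to 20 at 240 min and 10 to 23 at 480 min. The share of all genes moved in the same fits. The highest counts at 20, 40 and 60 min were 5.33%, 1.33% and 5.33%, against 5.3%, 1.59% and 3.79%. At 120 min the 5 were 6.67%, against 6.67% or 8.34%, and the 23 were 30.7%, against 15.3%. The 9 and 20 at 240 min were 12% and 26.7%, against 8.9% and 11.8%. The 10 and 23 at 480 min were 13.3% and 30.7%, against 10.6% and 16.7%. The lower members ranged from 1 to 2 at 120 min, 0 to 1 at 240 min and 0 to 1 at 480 min. The 2 at 120 min were 2.67%, against 2.73% of all genes, and the 1 at 240 min was 1.33%, against 4.9%. The 1 at 480 min was 1.33%, against 5.42% to 6.26%. Those passing the F-test ranged from 12 to 23, without a background. Dim signal limits members such as MRPL40 and MRPS23, whose 0 min means of 5.48 and 5.80 lay near the filter at 5.18.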
